A study of Apis mellifera with 18 samples.

Results

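In the honeybee queen brain, 10 gene models had lower transcript levels in every pool of brains from queens that had received semen or seminal fluid than in every pool of control brains, in each of 2 RNA-seq experiments. They were picked by that pattern. The measure was CPM, the reads counted for a gene divided by all reads counted for genes in that library and multiplied by 1000000. Of 15314 gene models, 10486 had a mean of at least 1 CPM over the 18 libraries (leaving out the model GB49726), and among these 10 had all 6 inseminated libraries below all 3 controls in both experiments. That is 0.0954% of the genes considered. The pattern held for 155 genes (1.48%) in Experiment 1 and for 138 genes (1.32%) in Experiment 2, each taken by itself, and the opposite pattern, higher in every inseminated library of both experiments, held for 38 genes (0.362%).

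All queens were Apis mellifera ligustica, reared from larvae of a single colony. They were confined as virgins to small queenless hives and were given CO2 for 1 minute at 4 days after hatching. They were sedated with CO2 again for the insemination procedure 1 day later. At collection, 24 h after the procedure, they were briefly given CO2 once more before their heads were frozen. In Experiment 1, control queens went through the procedure with no fluid (mock insemination, MI), and the others received 6 µl of fresh semen pooled from about 10 males (INS) or 6 µl of thawed seminal fluid (SF). In Experiment 2, the controls received 6 µl of Hayes saline (HS), a buffered salt solution, and the others again received 6 µl of semen or of seminal fluid. Each of the 6 groups had 3 libraries (A, B and C), each made from polyA RNA of 3 pooled brains that kept their optic lobes. The pools hide differences between queens, and a single colony of origin limits what the groups stand for. Because the assay read bulk RNA, fewer cells of a type and less RNA per cell cannot be told apart in any value below.

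A honeybee queen mates during a brief period early in adult life, stores the sperm, and then turns from flight to egg laying, a change accompanied by shifts in behaviour, physiology and brain gene expression. Seminal fluid proteins of insects are known to act on the physiology and behaviour of females. Of the 10 gene models, 8 had no name in the sources used here. The named ones were GB48241, N-terminal glutamine amidohydrolase, an enzyme that turns an N-terminal glutamine of a protein into glutamate and so feeds the pathway that marks proteins for degradation by their first residue, and GB45413, GTPase-activating Rap/Ran-GAP domain 3. Proteins with a Rap GAP domain switch off Rap, a small GTPase that acts in cell adhesion and in signalling within neurons.

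Counts assigned to genes were 26636844 to 51745752 per library (median 36062110). The mock-inseminated group was the shallowest of Experiment 1, at 26636844 to 35725911 against 37784474 to 51745752 for semen and 34488100 to 40473944 for seminal fluid, and the groups of Experiment 2 overlapped between 31138373 and 44633262. The most abundant gene model, GB49544 (vitellogenin, also a fat body marker), made up between 0.840% and 9.96% of a library. Its share varied inside groups as well as between them. It reached 8.90% in one seminal fluid library of Experiment 2 (C) and stood at 0.840% and 0.949% in the other two. Among the mock-inseminated libraries it ran from 2.98% to 9.96%. These shares move the CPM of every other gene, and their part in the pattern is given below by changing the scaling.

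GB48241 measured 274, 222 and 202 CPM in mock-inseminated libraries A, B and C, 123, 151 and 141 CPM after semen, and 88.0, 162 and 146 CPM after seminal fluid. For the same gene, Experiment 2 gave 337, 407 and 413 CPM with Hayes saline, 274, 273 and 256 CPM with semen, and 255, 305 and 226 CPM with seminal fluid. Seminal fluid library A was the lowest library of Experiment 1 and seminal fluid library B the highest inseminated one of Experiment 2, and neither group of inseminated libraries overlapped its controls. Mean CPM was 232.8 ± 37.2 (SD, n = 3) after mock insemination against 138.4 ± 14.5 (SD, n = 3) after semen, and the 6 inseminated libraries together averaged 41.9% below their controls in Experiment 1 and 31.3% below them in Experiment 2.

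GB45413 stood at 133, 126 and 95.1 CPM in the mock-inseminated libraries, 71.2, 91.6 and 89.1 CPM after semen, and 71.5, 83.3 and 86.4 CPM after seminal fluid. Its levels in Experiment 2 were 161, 220 and 203 CPM with Hayes saline, 119, 137 and 134 CPM with semen, and 145, 160 and 117 CPM with seminal fluid. In each experiment a single control library (MI C, HS A) lay far below the other controls and close to the highest inseminated library. The inseminated mean lay 30.4% below the control mean in Experiment 1 and also 30.4% below it in Experiment 2.

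Among the unnamed genes the widest differences belonged to GB42583, with 2.86, 2.44 and 1.23 CPM after mock insemination, 0.928, 0.574 and 0.371 CPM after semen, and 0.272, 0.812 and 1.12 CPM after seminal fluid. Corresponding Experiment 2 values were 1.06, 1.96 and 2.58 CPM with Hayes saline, 0.437, 0.610 and 0.763 CPM with semen, and 0.577, 0.998 and 0.627 CPM with seminal fluid. The inseminated mean was 68.8% lower in Experiment 1 and 64.1% lower in Experiment 2, but these are few reads. Its mean over the 18 libraries, 1.12 CPM, passed the minimum of 1 CPM through the controls. Control means were 2.18 and 1.87 CPM in Experiments 1 and 2, and inseminated means were 0.680 and 0.669 CPM. The gene had 11 to 87 counts per library, and the lowest of them, 11 counts in seminal fluid library A of Experiment 1, equals 0.272 CPM with an exact Poisson 95% interval of 0.136 to 0.486 CPM that covers counting error only.

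GB53209 was measured at 9.09, 9.72 and 9.63 CPM in the mock-inseminated libraries, 3.63, 5.98 and 3.68 CPM after semen, and 4.35, 4.84 and 6.06 CPM after seminal fluid. Hayes saline gave 7.68, 9.36 and 7.91 CPM for it, semen 4.31, 4.80 and 4.65 CPM, and seminal fluid 4.89, 4.46 and 6.97 CPM. This was the gene with the widest gap of all 10 in Experiment 1: its highest inseminated library lay 33.3% below its lowest mock-inseminated library. Means of the inseminated libraries were 49.8% and 39.7% below those of the controls in Experiments 1 and 2.

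GB51938 had 6.32, 2.93 and 4.39 CPM after mock insemination, 2.67, 1.85 and 2.88 CPM after semen, and 1.98, 2.15 and 2.25 CPM after seminal fluid. It had 3.66, 4.38 and 3.64 CPM with Hayes saline, 2.34, 3.08 and 2.67 CPM with semen, and 2.28, 2.91 and 1.68 CPM with seminal fluid. The mock-inseminated libraries differed among themselves by more than the group means did, and library B of that group lay within 1.49% of the highest semen library. These 2 libraries held 78 and 109 counts of the gene, and the gap is smaller than the counting error of either. The inseminated mean was 49.5% below the control mean in Experiment 1 and 36.0% below it in Experiment 2.

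GB44674 showed 3.49, 3.04 and 3.30 CPM after mock insemination, 2.45, 2.68 and 1.91 CPM after semen, and 1.98, 2.15 and 1.83 CPM after seminal fluid. With Hayes saline it gave 3.73, 3.69 and 3.73 CPM, with semen 3.65, 2.50 and 3.05 CPM, and with seminal fluid 2.49, 2.55 and 2.98 CPM. Semen library A of Experiment 2 was nearly level with the saline controls, while the other inseminated libraries lay lower. It held 117 counts against 143 in saline library B, and the gap of 0.948% between them is smaller than the counting error of either. The means differed by 33.9% in Experiment 1 and by 22.7% in Experiment 2.

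GB51346 was at 2.21, 2.21 and 2.58 CPM after mock insemination, 1.82, 1.72 and 1.96 CPM after semen, and 2.17, 1.97 and 1.83 CPM after seminal fluid. Saline libraries of Experiment 2 held 2.83, 2.06 and 1.87 CPM of it, semen libraries 1.37, 1.44 and 1.84 CPM, and seminal fluid libraries 1.25, 1.69 and 1.25 CPM. With 41 to 94 counts per library, the gaps of 1.42% and 1.58% between its nearest libraries are smaller than the counting error of either library. Its inseminated mean was 18.01% below the control mean in Experiment 1 and 34.5% below it in Experiment 2.

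GB49806 was counted at 349, 336 and 332 CPM in the mock-inseminated libraries, 301, 272 and 265 CPM after semen, and 231, 264 and 247 CPM after seminal fluid. The Experiment 2 libraries gave 271, 277 and 267 CPM with Hayes saline, 256, 230 and 237 CPM with semen, and 207, 212 and 187 CPM with seminal fluid. Among the 5 members with at least 888 counts in every library, this gene had the tightest controls, with a coefficient of variation of 2.71% after mock insemination and 1.81% with saline, and the order in both experiments ran from control to semen to seminal fluid with no overlap at any step. The inseminated mean was 22.3% and 18.6% below the control mean.

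The remaining genes, GB47955 and GB46547, had the smallest differences in Experiment 2. GB47955 gave 342, 289 and 289 CPM after mock insemination, 249, 236 and 218 CPM after semen and 212, 281 and 281 CPM after seminal fluid, then 379, 371 and 445 CPM with saline, 320, 366 and 260 CPM with semen and 367, 333 and 337 CPM with seminal fluid. GB46547 gave 39.1, 36.4 and 31.3 CPM after mock insemination, 27.7, 29.3 and 29.7 CPM after semen and 26.5, 25.7 and 31.3 CPM after seminal fluid, then 33.5, 37.0 and 31.5 CPM with saline, 27.8, 27.9 and 30.3 CPM with semen and 29.3, 31.2 and 24.4 CPM with seminal fluid. For each of them at least 1 inseminated library nearly touched the lowest control. The means differed by 19.7% and 17.1% for GB47955 and by 20.4% and 16.2% for GB46547.

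**Figure D1:**
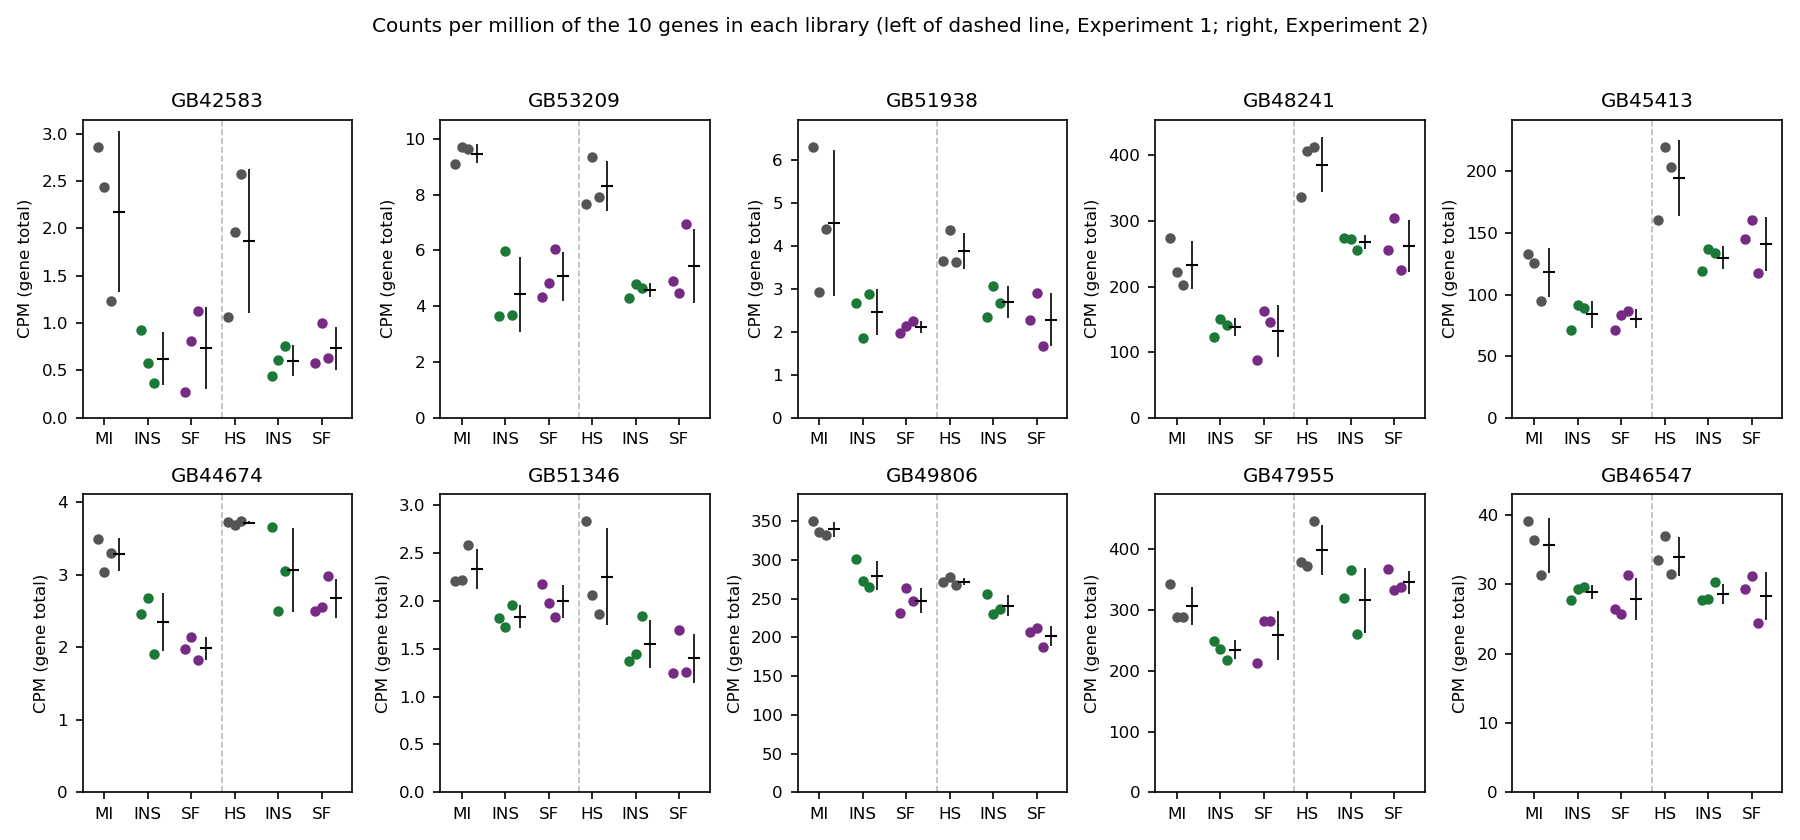
CPM by gene total (vertical axis, from 0) of the 10 genes in each of the 18 libraries, with points for libraries A, B and C of each group from left to right and black bars for the mean ± SD (n = 3). Grey marks controls (MI, HS), green semen (INS) and purple seminal fluid (SF), and in each panel the coloured points of an experiment lie below its grey points, by as little as 0.142% of the lowest control for GB46547 in Experiment 1 and as much as 33.3% for GB53209.

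At the edge of the rule, GB46547 entered with a gap of 0.142% in Experiment 1 (lowest control 31.35, highest inseminated library 31.31 CPM), and GB45413 with a gap of 0.246% in Experiment 2 (160.6 against 160.2 CPM). Just outside lay GB43434, an enolase-phosphatase E1-like gene of the methionine salvage pathway, whose highest inseminated library in Experiment 2 exceeded the lowest control by 0.243% (120.6 against 120.3 CPM). GB49221 missed by 0.605% and GB43154 by 1.49%. The lowest mock-inseminated library was C for 5 of the genes, and the lowest saline library was A for 4 and C for 4. No gene with a mean under 1 CPM had the pattern.

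On the log2 scale, from counts scaled with TMM factors (trimmed mean of M values, which set a library's size from the bulk of its genes rather than from its total), the members had median fold changes of -0.46 for semen and -0.54 for seminal fluid against mock insemination, and of -0.51 and -0.55 against Hayes saline. Over all genes tested the median was -0.01 in each of these contrasts. Since the members were chosen by these contrasts, the values describe them and were not tested. GB42583 ranged from -1.70 (SE 0.49) for semen against mock insemination to -1.37 (SE 0.34) for seminal fluid against saline, and GB53209 from -1.09 (SE 0.19) to -0.62 (SE 0.21). The last value of GB53209, for seminal fluid against saline, was -0.93 without seminal fluid library C and -0.45 without library B. GB48241 lay at -0.73 (SE 0.16) and -0.74 (SE 0.16) in Experiment 1 and at -0.50 (SE 0.08) and -0.59 (SE 0.08) in Experiment 2. GB45413 lay between -0.45 (SE 0.10) and -0.56 (SE 0.10) in the 4 contrasts. The weakest value was that of GB51346 for seminal fluid against mock insemination, -0.13 (SE 0.22), within 1 standard error of no difference, and it was 0.0069 without mock-inseminated library C and -0.28 without seminal fluid library A. Semen and seminal fluid share their controls within an experiment, so their values against those controls are not separate observations.

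**Figure D2:**
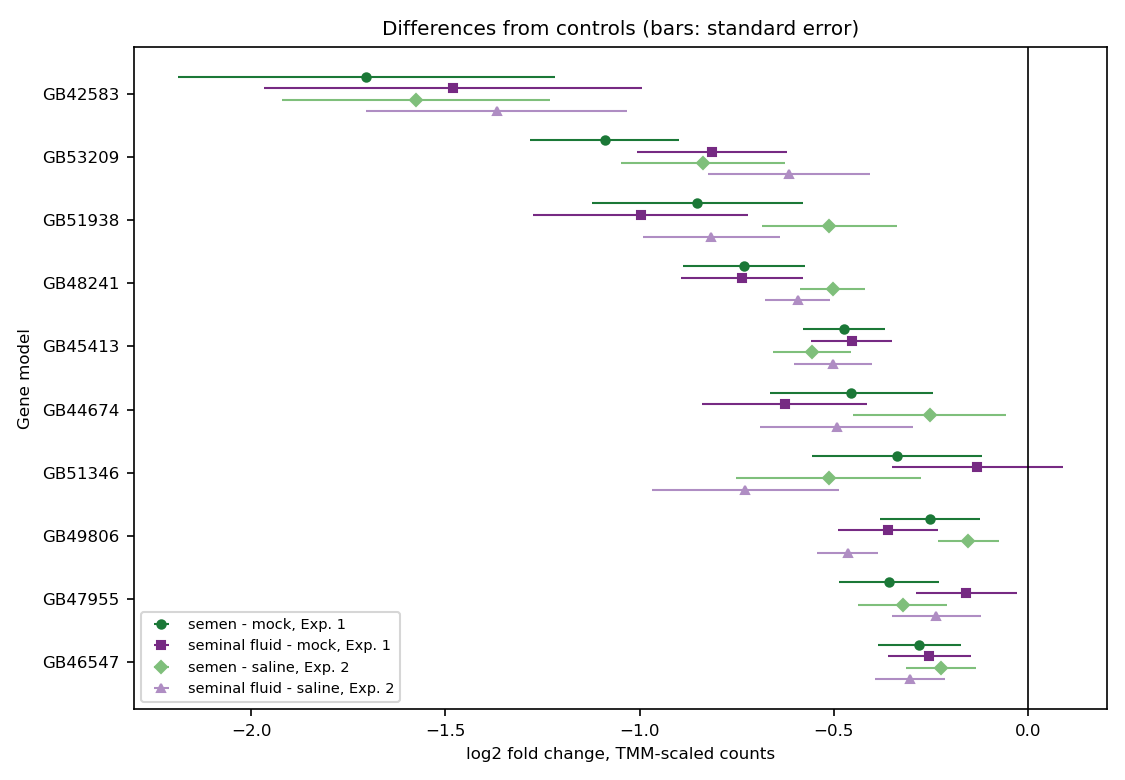
Log2 fold change of semen and of seminal fluid against the controls of the same experiment (horizontal axis, TMM-scaled counts) for the 10 genes, with bars of 1 standard error from edgeR's fit of 9 libraries. All 40 points lie below 0, as the choice of genes favours, from -1.70 for GB42583 to -0.13 for GB51346.

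The pattern depended on how libraries were scaled. With TMM library sizes in place of gene totals, 4 of the 10 genes kept every inseminated library below every control in both experiments, namely GB42583, GB53209, GB48241 and GB45413, and DESeq2 size factors kept the same 4. Over all genes the rule then held for 23 (0.219%) and 21 (0.200%). The gaps of GB48241 and GB45413 widened under TMM, from 9.46% to 20.6% and from 0.246% to 12.5% in Experiment 2, and those of GB42583 widened in both experiments, whereas the gap of GB53209 in Experiment 2 shrank from 9.22% to 2.26%. Of the other genes, GB51938 and GB49806 overlapped in Experiment 1, GB44674, GB47955 and GB46547 overlapped in Experiment 2, and GB51346 overlapped in both. Each of these overlaps came from 1 inseminated library, except that 2 libraries overlapped for GB51346 in Experiment 1. Of the 23 genes under TMM, 19 were not among the 10. With GB49544 taken out of the gene totals the rule gave 14 genes (0.134%), among them 9 of the 10, GB51346 being the one lost.

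**Figure D3:**
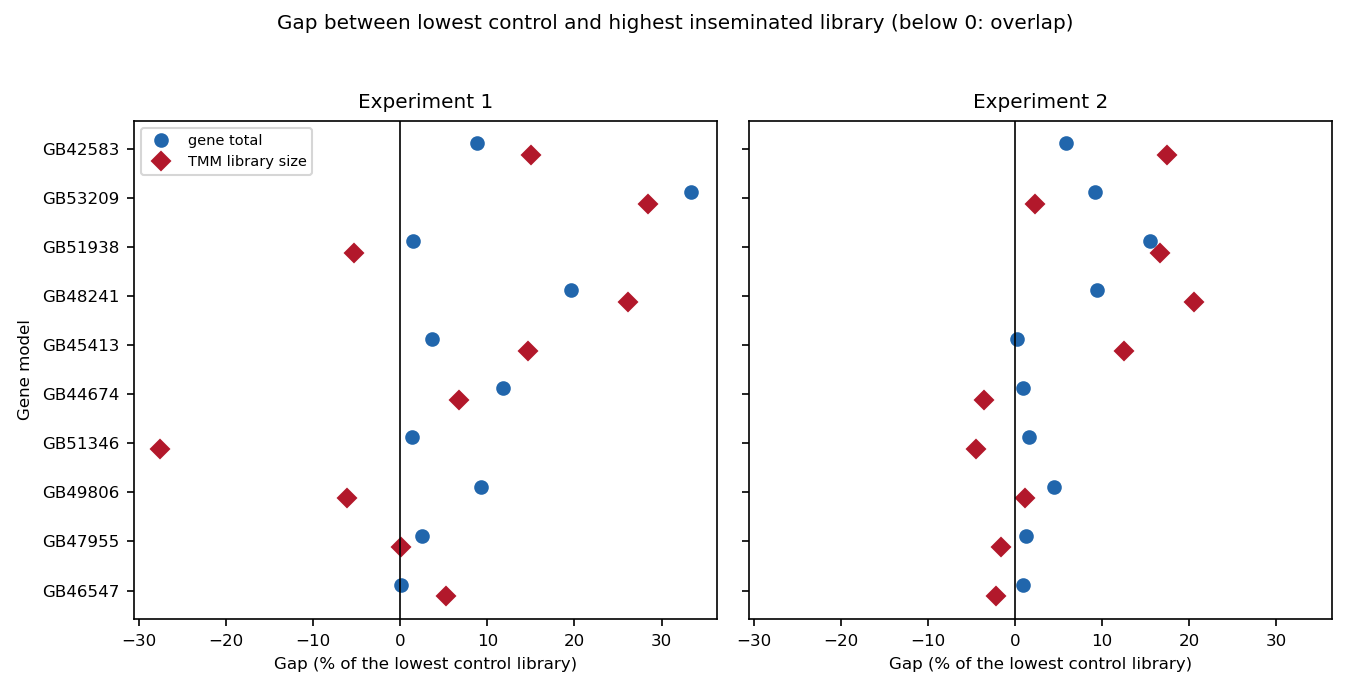
Gap between the lowest control library and the highest inseminated library, as a percentage of the lowest control (horizontal axis), for each gene in Experiment 1 and Experiment 2, with CPM by gene total (blue circles) and by TMM library size (red diamonds). Values below 0 mark overlap, and under TMM only GB42583, GB53209, GB48241 and GB45413 stay above 0 in both panels.

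The comparison of seminal fluid with semen was not used to choose the genes and asks whether the sperm-free fluid left another level than whole semen. The fluids differed in more than sperm. Semen was used fresh, whereas seminal fluid was centrifuged, frozen and drawn from large batches of drones. These differences cannot be told apart from the presence of sperm. No member passed an adjusted p of 0.1 in edgeR's quasi-likelihood test on the 9 libraries of either experiment. Among all genes the test called none in Experiment 1 (0% of 11761 tested, against 486 lower and 194 higher at an unadjusted p under 0.05) and 1 in Experiment 2, which was lower (0.00840% of 11899 tested, against 1169 lower and 1040 higher unadjusted). DESeq2 called no member and 1 gene in all in Experiment 1. In Experiment 2 the number of genes called depended strongly on the fit. There DESeq2 called 831 genes, 574 of them lower, and edgeR on the 6 semen and seminal fluid libraries alone called 1201, 427 of them lower. Each of these 2 fits called 1 member, GB49806. The members' log2 fold changes of seminal fluid against semen ran from -0.17 to 0.28 (median 0.02) in Experiment 1 and from -0.31 to 0.22 (median -0.08) in Experiment 2, against medians over all genes of 0.0047 and 0.0016.

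GB49806 came nearest to a difference between the fluids. All 3 of its seminal fluid libraries lay below all 3 semen libraries in both experiments, which by gene totals held for 3.66% of genes in Experiment 1, 9.08% in Experiment 2 and 0.286% in both. Its mean CPM after seminal fluid was 11.5% below that after semen in Experiment 1 and 16.2% below it in Experiment 2, by gene totals. The log2 fold change of Experiment 2 was -0.31 (SE 0.08, 95% interval -0.49 to -0.13, edgeR adjusted p = 0.229). DESeq2 gave it an adjusted p of 0.0166, and edgeR fitted to the 6 semen and seminal fluid libraries alone an adjusted p of 0.0768. Over all alternatives that left out 1 library the edgeR adjusted p ranged from 0.106 to 0.563. In Experiment 1 the log2 fold change was -0.11 (SE 0.13, edgeR adjusted p = 0.968), the libraries overlapped under TMM, and without semen library A it turned to 0.043. The difference between experiments was -0.17 (SE 0.15, edgeR adjusted p = 0.623). For GB48241 the 95% interval of seminal fluid against semen was -0.35 to 0.34 in Experiment 1 and -0.28 to 0.10 in Experiment 2, and for GB45413 it was -0.21 to 0.25 and -0.17 to 0.28. The interval of GB42583, -0.89 to 1.34 in Experiment 1, includes a 2-fold difference. In edgeR's main fit the test of a difference between experiments in this contrast called no member and no gene (0% lower and 0% higher of 12052, against 399 lower and 1352 higher unadjusted). That result depended on the fit. DESeq2 called 318 genes, 58 of them lower, and edgeR without semen library A of Experiment 1 called 1082, 234 of them lower. Each of these fits called 0 members.

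**Figure D4:**
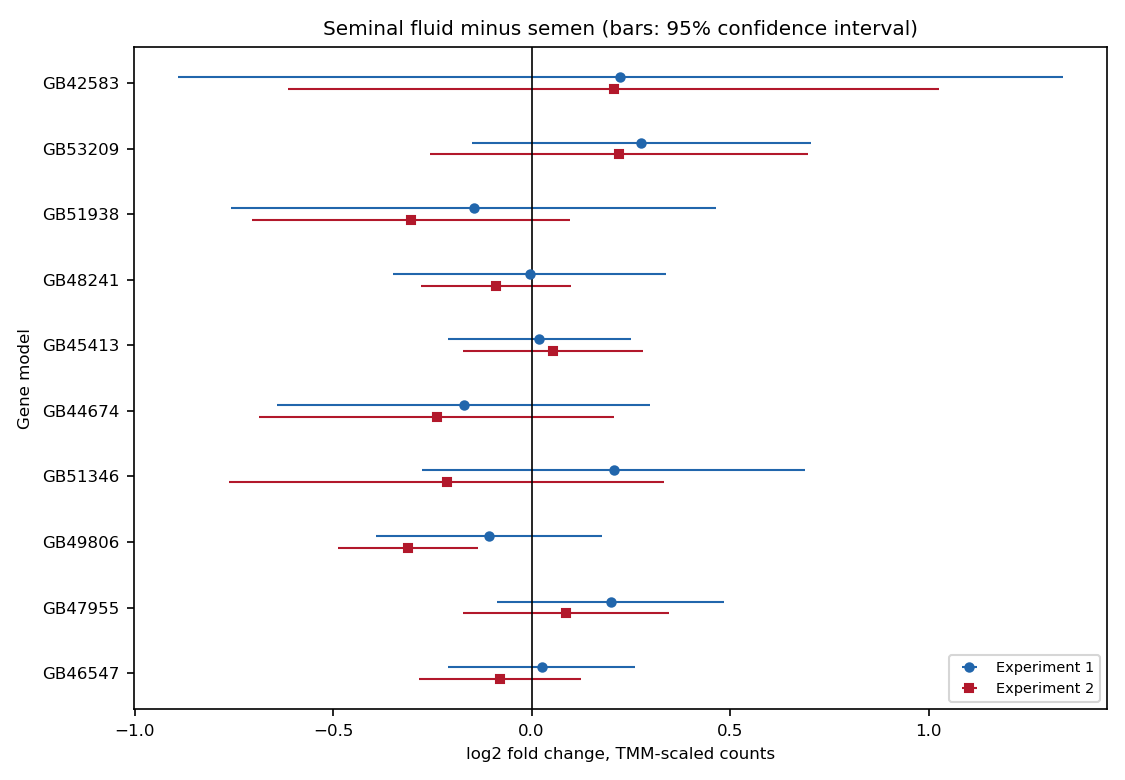
Log2 fold change of seminal fluid against semen (horizontal axis, TMM-scaled counts) for the 10 genes in Experiment 1 (blue circles) and Experiment 2 (red squares), with 95% confidence intervals from edgeR. The interval of GB49806 in Experiment 2, -0.49 to -0.13, is the only one of the 20 that does not include 0, and its adjusted p was 0.229.

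Levels also differed between the experiments, which used other queens. The inseminated libraries of both experiments received the same 2 fluids, so that any difference there is one between experiments, whereas in the controls mock insemination and saline differ as well and cannot be told apart from the experiment. In the inseminated libraries 5 members were lower in Experiment 2 than in Experiment 1, where 33.4% of all genes were called lower, and 2 were higher, where 36.4% were called higher. In the controls 5 were lower (24.0% of all genes) and 1 was higher (26.5%). The 5 were the same in each case. These counts depend on the scaling. By gene totals 9670 of the 12052 genes tested were called in the inseminated libraries, 1494 of them lower. Among the 10 members 6 were called, 2 lower (GB51346 and GB49806) and 4 higher (GB48241, GB45413, GB44674 and GB47955). In the controls gene totals called 8321 of the 12052 genes, 1108 of them lower. Among the 10 members 4 were called, GB49806 lower and GB48241, GB45413 and GB47955 higher. With most genes called, these counts set the members apart from other genes in neither case. GB49806 differed by -0.83 (SE 0.08, edgeR adjusted p = 3.06e-07) in inseminated and by -0.82 (SE 0.11, edgeR adjusted p = 5.74e-05) in control libraries, and GB46547 by -0.56 in each (SE 0.07 and 0.10, edgeR adjusted p = 4.56e-06 and 0.000426). GB51346, GB53209 and GB51938 differed by -0.95, -0.47 and -0.46 in inseminated libraries (edgeR adjusted p = 9.54e-05, 0.0104 and 0.0291) and by -0.56, -0.70 and -0.72 in controls (edgeR adjusted p = 0.0575, 0.0128 and 0.0247). In controls the call of GB51346 was lost without mock-inseminated library C or saline library B or C (edgeR adjusted p = 0.160 to 0.217), and that of GB51938 without mock-inseminated library A (edgeR adjusted p = 0.142).

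GB48241 went the other way, at 0.42 (SE 0.09, edgeR adjusted p = 0.000573) in inseminated libraries and 0.23 (SE 0.12, edgeR adjusted p = 0.142) in controls. GB45413 was higher by 0.16 (SE 0.07, edgeR adjusted p = 0.0599) and 0.22 (SE 0.10, edgeR adjusted p = 0.0797), and these calls were fragile. The first was lost without semen library A or seminal fluid library B of Experiment 1, and without semen library B or C or seminal fluid library A or B of Experiment 2 (edgeR adjusted p = 0.101 to 0.174). The second was lost without mock-inseminated library C or saline library B or C (edgeR adjusted p = 0.203 to 0.357). With all libraries kept, both calls were also lost when edgeR used RLE factors, another scaling. The second was lost as well under DESeq2 and without the filter on counts. These differences rest on the scaling, since gene totals moved the median of all genes up by 0.48 in inseminated and by 0.43 in control libraries relative to TMM. With gene totals GB53209, GB51938 and GB46547 changed sign in the inseminated libraries, to 0.075, 0.12 and 0.0066, and GB53209, GB51938, GB51346 and GB46547 kept their sign but lost their call in the controls (edgeR adjusted p = 0.430 to 0.833). GB49806 stayed lower but by less, at -0.25 in inseminated libraries (edgeR adjusted p = 0.00264) and -0.32 in controls (edgeR adjusted p = 0.00874), and GB51346 moved to -0.37 in inseminated libraries (edgeR adjusted p = 0.0344). GB48241 rose to 0.97 and GB45413 to 0.72 in inseminated libraries by this scaling, and GB45413 to 0.72 in controls. Within an experiment the same shift was at most 0.08 in size.

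**Figure D5:**
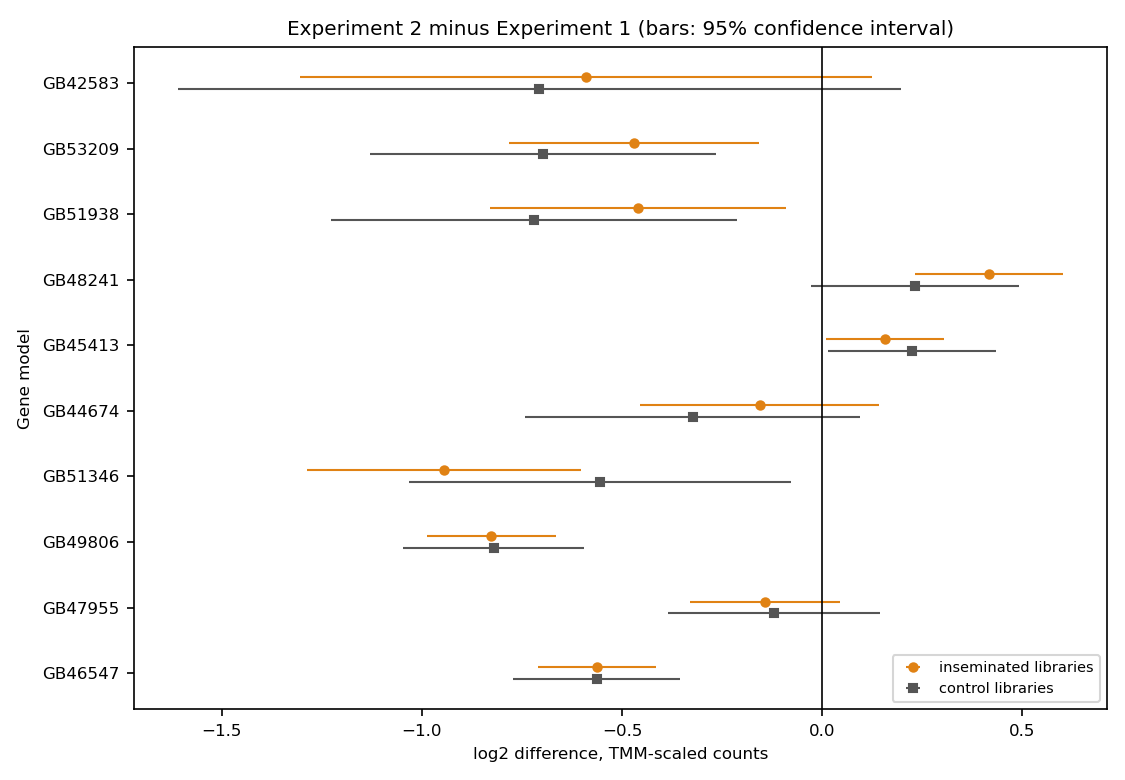
Log2 difference between Experiment 2 and Experiment 1 (horizontal axis, TMM-scaled counts) for the 10 genes in inseminated libraries (orange circles) and in controls (grey squares), with 95% confidence intervals from edgeR's fit of 18 libraries. GB49806 lies near -0.83 in both kinds of library, and GB48241 and GB45413 are the genes above 0.

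After group means were removed from log2 TMM values, the members did not vary from pool to pool as a block. Of their 45 pairs, 26 had a positive correlation over the 18 libraries, with a median r of 0.08 and a range from -0.54 to 0.74, against a median of 0.0022 and 50.2% positive over all pairs of the 10486 genes. The highest values joined GB44674 with GB49806 (r = 0.74), GB42583 with GB48241 (r = 0.68) and GB51346 with GB49806 (r = 0.55), and GB42583 with GB45413 reached 0.51. The lowest was that of GB48241 with GB51346 (r = -0.54). With GB49544 the correlation ran from -0.60 for GB45413 to 0.63 for GB53209. With the log2 gene total of the library it ran from -0.15 for GB48241 to 0.62, again for GB53209. These are descriptions over libraries that share depth and scaling, and 2.17% of all gene pairs reached at least 0.74.

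The other lists available were those the study named. Of the 36 genes it listed as changed throughout both experiments (GB49726 left out), 2 were members (GB48241 and GB45413) and 27 were higher in every inseminated library of both experiments; that list was chosen on these samples and is no independent evidence. Of 22 phototransduction genes, which act in the light response of the eye, none was a member and 2 were higher in every inseminated library of both experiments. All 22 were detected in every group, and their summed level was 5039 to 6179 CPM after mock insemination, 5305 to 6004 CPM after semen and 5523 to 6163 CPM after seminal fluid. In Experiment 2 it was 5934 to 7105 CPM with saline, 6752 to 7035 CPM with semen and 7234 to 7818 CPM with seminal fluid. These sums used gene totals and were not taken with TMM library sizes. They are weighted to the most abundant genes of the list, such as GB44311 (Arp1) and GB49410, with mean CPM of 1784 and 1289. The means of inaD, ninaC and TRP were 134, 19.2 and 18.7 CPM. After group means were removed from log2 TMM values, correlations of the members with the mean of the 22 phototransduction genes ran from -0.44 for GB48241 to 0.47 for GB53209. The part of photoreceptor content in the members' levels was not tested. Apart from GB49544 (vitellogenin), markers of glia, fat body, glands and other cell types were not analysed here.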

How the data were processed

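Brain RNA of 18 pools (3 brains each, 6 groups of 3) was sequenced by the authors as single-end reads of 120 bp. According to the study's methods and the submitters' processing notes, the authors trimmed reads with Trimmomatic, removed ribosomal reads with SortMeRNA, aligned with STAR 2.4.2a to honeybee assembly 4.5 and counted with HTSeq; the deposited values are their raw read counts for each gene model, not normalized. How the counting treated strand, and which overlap rule it used, are not given in the sources used here. Reads marked as ambiguous between gene models formed a total of their own, 4.00% to 4.63% of the counts in a file. They were counted for no gene. The 5 totals of unassigned reads were left out, and 68.8% to 72.1% of the counts in a file were assigned to genes.

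CPM used gene totals. Counts were fitted with edgeR 4.0.16 in R 4.3.3 (TMM, quasi-likelihood test, two-sided, Benjamini-Hochberg adjustment over all genes that reached 10 counts in 3 or more libraries, threshold 0.1), with 9 libraries per experiment or all 18 for contrasts between experiments. Alternatives were DESeq2 1.42.0, limma-voom (limma 3.58.1), other scalings, filters and fits, a replicate block, and each library left out. A bias-adjusted fit, and gene totals for the contrasts between experiments, were chosen after seeing the data. The edgeR test of seminal fluid against semen was tested on simulated data. Those counts were drawn independently for each library and held no outlying library, and no result here rests on them. Only contrasts that the choice of genes did not use were tested. Values of all 10 genes are given, and the genes, lists and tests were chosen with earlier results of these data known. Names came from the study's tables; the reference table matched 0 of the gene model identifiers. Whether pools of a group shared hives or days is not stated, so p-values measure the spread between these pools. The authors' own fold changes were not used.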

Additional observations from a re-analysis of the deposited data

How the results depend on the processing

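The number of genes with the pattern was 23 with TMM library sizes, 21 with DESeq2 size factors, 14 without GB49544 in the totals, 10 with a minimum of 0.5 CPM and 6 with a minimum of 5 CPM. Leaving out 1 library loosens such a rule, and it kept all 10 and gave 10 to 27: 27 without saline library A, 26 and 23 without mock-inseminated libraries B and C, 21 without seminal fluid library B of Experiment 2, and 19 and 18 without semen library B of Experiment 1 and saline library C. The members' median log2 fold changes without 1 library were -0.53 to -0.41 and -0.56 to -0.50 against mock insemination and -0.51 to -0.42 and -0.61 to -0.51 against saline (semen, then seminal fluid). For seminal fluid against semen, 0 members were called in any fit of Experiment 1, and in Experiment 2 DESeq2 and the fit of 6 libraries each called 1 (GB49806), with 831 and 1201 genes called in all. GB49806 in Experiment 1 ranged from -0.19 (without semen library C) to 0.043 (without semen library A, reversed). With gene totals only, GB53209, GB51938 and GB46547 reversed to 0.075, 0.12 and 0.0066 between experiments in inseminated libraries. Members called between experiments numbered 6 to 9 (inseminated) and 4 to 6 (controls) without 1 library, in fits that called 8012 to 8452 and 4835 to 5889 genes. The replicate letters did not pair the libraries: 1 of 9 same-letter correlations in Experiment 1 and 4 of 9 in Experiment 2 exceeded 0.1, and 0 of 9 and 1 of 9 libraries correlated best with their own letter. With the letter as a replicate block, the medians were -0.47, -0.54, -0.50 and -0.55, 0 members were called for seminal fluid against semen in either experiment, and 7 and 6 were called between experiments. GB42583, GB51938, GB44674 and GB51346 had under 100 counts in at least 1 library.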
